A study of Arabidopsis thaliana with 12 samples.

Results

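The genes AT3G50130, AT3G50180 and AT3G50270, numbered close together on chromosome 3 of Arabidopsis thaliana, were followed in plants of ecotype Wassilevskija (WT) and in an aap6 mutant of the same ecotype. The members were the probes listed in the platform annotation for exactly 1 gene, that gene being 1 of these 3. That gave 3 probes, 1 per gene, of 3439 probes in all and of 692 probes that listed 1 gene, which cover 691 genes. The genes were chosen by their measured change between aap6 and WT, known from earlier results of these data, together with their place on the chromosome, so that change is described here and not tested.

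The working label for the genes was a DUF247 cluster, and it fits AT3G50130 and AT3G50180. AT3G50270 is known as an HXXXD-type acyltransferase of the BAHD family and not as a DUF247 gene. The data hold no sequence or product name with which either assignment could be checked, so both are background here. The genes are therefore called by their locus names below.

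DUF247 proteins form a plant family named after a domain of unknown function, and several of its genes often stand side by side on a chromosome. In the grass Lolium perenne, members of the family lie at the self-incompatibility loci, where pollen and stigma recognise each other, while the roles of AT3G50130 and AT3G50180 are not established. BAHD acyltransferases move an acyl group from a coenzyme A thioester to an alcohol or amine. In Arabidopsis, enzymes of that family act in the making of lignin precursors, cuticular wax, cutin, suberin and acylated anthocyanins. No substrate of AT3G50270 is named in the sources used here.

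The 12 arrays held total RNA of both genotypes, 6 samples of each, which carry the numbers 1 to 6. AAP6 encodes an amino acid permease, a membrane carrier for amino acids, described in the labels as belonging to xylem parenchyma and as missing from the mutant. Which allele and tissue were used, how plants were grown and how many stood behind a sample is not given in the sources used here. No probe listed AAP6 alone, so the genotype could not be checked. Of 14 marker genes of green tissue, root and xylem, 0 had a probe of their own, so these markers could not check a tissue. Other genes were not used for that.

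Signals were deposited on a linear scale bounded at 0 and 100. The median of an array was 0.142 to 0.164 for WT but 0.234 to 0.265 for aap6, so the scaling between arrays bears on every difference. Of the arrays of a genotype, 1 was most like 2, 3 like 4 and 5 like 6 (correlations across probes of 0.993 to 0.998, against 0.955 to 0.980 for other arrays of a genotype), and each such pair was averaged to 1 sample, giving n = 3 for WT and for aap6. The labels do not tie the numbers to separate plants, and the spread reported here may be technical. In tissue RNA, fewer cells of a type and less RNA per cell cannot be told apart.

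Along the protein-coding genes of chromosome 3 in the TAIR10.1 gene table, AT3G50180 stands 5 steps after AT3G50130 with 4 genes between them. AT3G50270 stands another 9 steps on, with 8 genes between. The genes between AT3G50130 and AT3G50180 belong to the same DUF247 row. The stretch from AT3G50130 to AT3G50270 holds 15 protein-coding genes, of which these 3 had a probe of their own. Genes between AT3G50180 and AT3G50270 include IRX15, which acts in xylan synthesis of the secondary cell wall, and CEJ1, a DREB-type transcription factor, and neither had a probe of its own.

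AT3G50130 had even signals in WT and higher ones in aap6. Its deposited signals in WT arrays 1 to 6 were 0.371, 0.420, 0.308, 0.315, 0.315 and 0.295. In aap6 arrays 1 to 6 they were 1.62, 2.07, 1.78, 1.58, 2.55 and 2.47. Every aap6 array lay above every WT array on this scale, on which the share of all probes without overlap was not counted. The highest aap6 signals were those of arrays 5 and 6.

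The mean deposited signal of AT3G50130 was 0.337 ± 0.048 in WT and 2.01 ± 0.42 in aap6 (SD, 6 arrays each), a 5.96-fold ratio. After quantile normalization, which gives all arrays the same distribution of signals, the mean log2 signal was -1.31 ± 0.22 in WT and 0.94 ± 0.30 in aap6 (SD, n = 3 averaged samples). The log2 change, aap6 minus WT, was 2.25 ± 0.22 (SE), which is 4.75-fold. Of the 2579 probes bright enough to test, it had the change ranked 20 from the top. After normalization its aap6 arrays again all lay above its WT arrays, as did those of 7.56% of tested probes.

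AT3G50180 showed one array of WT far from the rest. Its deposited signals in WT arrays 1 to 6 were 0.176, 1.32, 0.236, 0.327, 0.235 and 0.241. In aap6 arrays 1 to 6 they were 0.798, 1.80, 1.11, 1.17, 1.15 and 1.38. WT array 2 stood above 4 of the 6 aap6 arrays (5 after normalization), so the arrays of the genotypes overlapped. Array 2 was also the highest of the aap6 arrays. With the arrays numbered 2 left out, WT ran from 0.176 to 0.327 and aap6 from 0.798 to 1.38, with no overlap. They were left out after their values were seen, so this is no check of the gene. On the normalized scale, 9.19% of tested probes had all aap6 arrays above all WT arrays with those arrays left out.

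The log2 change of AT3G50180 was 1.51 ± 0.31 (SE, n = 3), or 2.85-fold, from -1.37 ± 0.53 in WT to 0.15 ± 0.08 in aap6 (SD of averaged samples). The WT spread came from the sample of arrays 1 and 2, at -0.76, while the samples of arrays 3 and 4 and of arrays 5 and 6 stood at -1.57 and -1.77. Without WT array 2 the change was 1.94 ± 0.14 (SE), and without both arrays numbered 2 it was 1.73 ± 0.23 (SE). The change ranked 49 among the tested probes with all arrays kept.

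AT3G50270 had higher signals in aap6 on every array. Its deposited signals in WT arrays 1 to 6 were 0.159, 0.124, 0.168, 0.140, 0.082 and 0.115. In aap6 arrays 1 to 6 they were 0.481, 0.461, 0.475, 0.438, 0.366 and 0.359. All aap6 arrays lay above all WT arrays, also after normalization, where this held for 7.56% of tested probes. The share on the deposited scale was not counted. In both genotypes arrays 5 and 6 were the lowest.

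The mean deposited signal of AT3G50270 was 0.131 ± 0.031 in WT and 0.430 ± 0.054 in aap6 (SD, 6 arrays each), a 3.27-fold ratio. The normalized log2 signal was -2.54 ± 0.37 in WT and -1.48 ± 0.28 in aap6 (SD, n = 3), a change of 1.06 ± 0.27 (SE) or 2.08-fold, ranked 125. None of its 12 signals fell under the floor of 0.0505, below which signals were raised before taking logarithms. Signals of different probes depend on the probe as well as on the transcript, so brightness sets no order of transcript levels among the 3 genes.

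**Figure D1:**
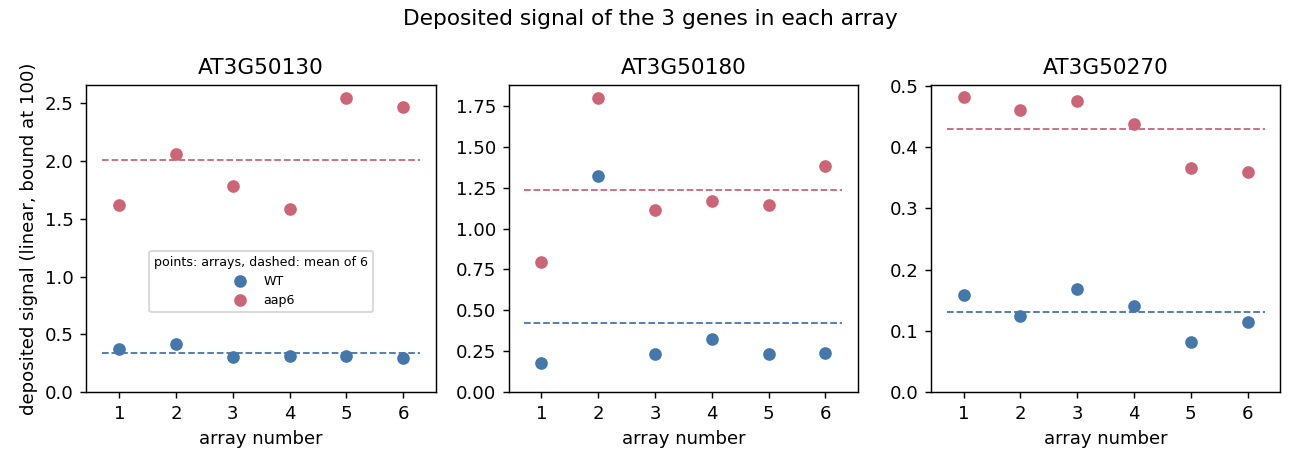
Deposited linear signal (vertical axis, each panel with its own scale) against array number for AT3G50130, AT3G50180 and AT3G50270, WT in blue and aap6 in red, with the mean of 6 arrays dashed. The aap6 points of AT3G50130 and AT3G50270 all lie above the WT points, while WT array 2 of AT3G50180, at 1.32, lies among the aap6 arrays. How many of all probes lie apart on this scale was not counted.

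Since the aap6 arrays were brighter at the median, signals were also set against the array. Relative to the median of its own array, AT3G50130 ran from 179% to 295% in WT and from 599% to 980% in aap6. AT3G50270 ran from 52.0% to 111% in WT and from 136% to 206% in aap6. Neither gene overlapped between genotypes on that scale, on which the share of all probes without overlap was not counted. AT3G50180 ran from 123% to 929% in WT and from 341% to 754% in aap6, the highest WT value being array 2.

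Without scaling between arrays the log2 changes were 2.56 for AT3G50130, 1.92 for AT3G50180 and 1.74 for AT3G50270, where the median of all tested probes was 0.49. With each array centred on its median they were 1.83, 1.19 and 1.01, with the median of all at -0.24. Under quantile normalization that median was -0.03. All 3 genes were higher in aap6 under each of these scalings, and AT3G50130 had the largest change of the 3 in each. Their change was known when they were chosen, so nothing is read from its sign.

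Over all tested probes limma called 229 of 2579 at an adjusted p of 0.05, which is 8.88%, with 150 higher in aap6 (5.82%) and 79 lower (3.06%). Samples of one number resembled each other between genotypes, though the labels give no pairing. With the 3 pairs of numbers as a block 464 were called. The split depended on scaling, with 880 higher and 20 lower without scaling and 200 higher and 505 lower with arrays centred on their medians. The 3 genes were among the probes called higher, but since their change was known when they were chosen, nothing is read from that count. The shares of probes without overlap that follow were counted on the normalized scale only. The 3 averaged aap6 samples all lay above the WT samples for all 3 genes and for 16.4% of tested probes. The 6 aap6 arrays all lay above the WT arrays for 2 of the 3 genes and for 7.56% of tested probes. With the arrays numbered 2 left out this held for all 3 genes and for 9.19%. That step was chosen after WT array 2 of AT3G50180 was seen to overlap, so nothing is read from it.

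**Figure D2:**
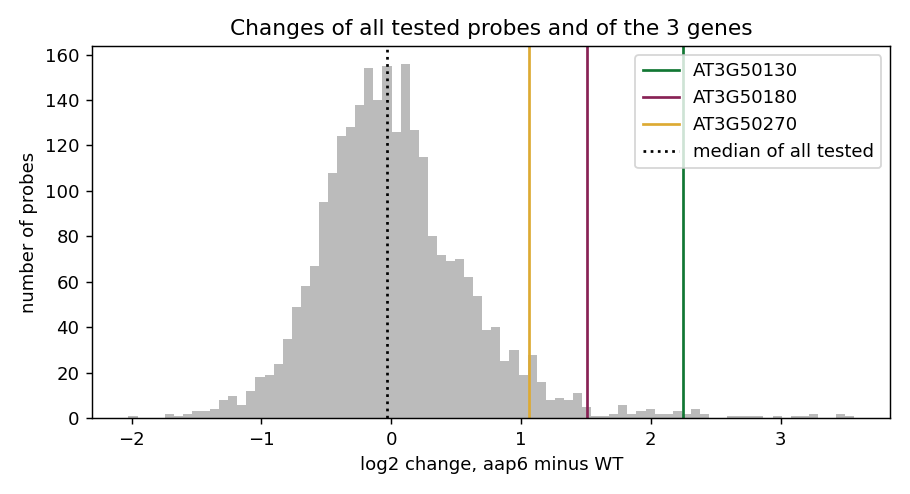
Number of probes (vertical axis) by log2 change, aap6 minus WT (horizontal axis), for the 2579 tested probes, with the changes of the 3 genes as coloured lines and the median of all tested probes dotted. AT3G50270 lies at 1.06, near the 95th percentile of all changes (1.06), and AT3G50130 at 2.25.

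The measured change of AT3G50130 was larger than those of AT3G50180 and AT3G50270. How far the size of a change depends on the probe was not tested. Within the same samples the log2 ratio of AT3G50130 to AT3G50270 was 1.27, 0.90 and 1.52 in the WT samples of arrays 1 and 2, 3 and 4, and 5 and 6. In the aap6 samples of the same numbers it was 2.11, 2.08 and 3.05. The aap6 values all lay above the WT values. The change of AT3G50130 exceeded that of AT3G50270 by 1.19 ± 0.37 (SE, n = 3) on the log2 scale after quantile normalization. It exceeded it by 0.82 ± 0.35 (SE, n = 3) both without scaling and with arrays centred on their medians, which treat the 2 genes of an array alike.

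The change of AT3G50130 exceeded that of AT3G50180 by 0.73 ± 0.23 (SE, n = 3). Their log2 ratio was -0.30, 0.15 and 0.32 in the WT samples and 0.67, 0.62 and 1.08 in the aap6 samples, without overlap. The other 2 scalings gave a difference of 0.65 ± 0.24 (SE, n = 3). The lowest of these, in WT arrays 1 and 2, contains the high WT array 2 of AT3G50180. For AT3G50180 against AT3G50270 the difference of the changes was 0.45 ± 0.29 (SE, n = 3), and the samples of the genotypes overlapped. Under the other 2 scalings it was 0.18 ± 0.31 (SE, n = 3). These differences come from the contrast that was known at the choice of the genes and were not tested. The share of other probe pairs whose ratios lie apart between genotypes was not counted.

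Pair by pair of array numbers, the change of AT3G50130 was 1.93 for arrays 1 and 2, 2.09 for arrays 3 and 4 and 2.72 for arrays 5 and 6. For AT3G50180 the values were 0.96, 1.62 and 1.95. For AT3G50270 they were 1.09, 0.91 and 1.19, the narrowest range of the 3 genes.

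Other genes of the row were reached by 2 probes that listed several genes, all of them in the DUF247 row. Of the 9 genes listed for that row (AT3G50120 to AT3G50200), 2 had a probe of their own, the members AT3G50130 and AT3G50180. Probe 3885 listed 3 genes, AT3G50130 among them, and probe 4538 listed 2, neither of them a member. Their signals cannot be given to one gene.

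Probe 3885 ran from 1.43 to 2.04 in the WT arrays, with a median of 1.79, and from 3.46 to 6.24 in the aap6 arrays, with a median of 4.54. Its log2 change was 1.42 ± 0.26 (SE, n = 3). Probe 4538 ran from 0.811 to 1.02 in WT, with a median of 0.956, and from 1.80 to 2.76 in aap6, with a median of 2.09, and its log2 change was 1.06 ± 0.11 (SE, n = 3). For both probes every aap6 array lay above every WT array, also after normalization, where this held for 7.56% of tested probes. How far related transcripts bind each of these 5 probes was not tested.

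**Figure D3:**
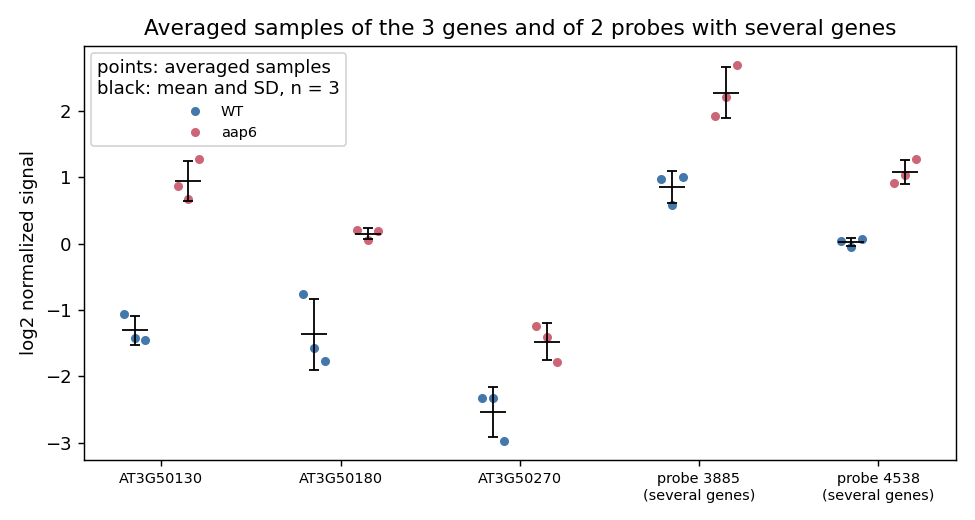
Normalized log2 signal (vertical axis) of the averaged samples of WT (blue) and aap6 (red) for the 3 genes and for probes 3885 and 4538, which list several genes of the row; black bars give mean and SD, n = 3. The genotypes are apart for each probe, as they are with aap6 higher for 16.4% of tested probes. The WT spread is widest for AT3G50180 (SD 0.53).

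Whether the genes varied together apart from genotype was described through the deviation of each array from its genotype mean on the normalized log2 scale. The points share labels, arrays and the resemblance of the pairs, so 12 arrays stand for fewer independent samples, and no p is given. Over all pairs of tested probes, the 5th and 95th percentiles of this correlation were -0.62 and 0.63.

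AT3G50130 and AT3G50180 had a Pearson correlation of deviations of 0.47 over 12 arrays, and lay on the same side of their means in 10 of 12. The correlation was 0.64 in WT and 0.44 in aap6. It was 0.17 over the 10 arrays left without those numbered 2, so much of its size rested on array 2.

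AT3G50130 and AT3G50270 did not vary together. Their correlation was -0.13 over 12 arrays, 0.37 in WT and -0.66 in aap6, and they lay on the same side of their means in 6 of 12 arrays. In aap6 arrays 5 and 6 AT3G50130 deviated by 0.37 and 0.29 and AT3G50270 by -0.26 and -0.36. Without those 2 arrays the correlation was 0.37, and without WT arrays 5 and 6 it was -0.56. AT3G50180 and AT3G50270 had a correlation of 0.03 in WT and -0.11 in aap6. Over 12 arrays, the correlations of all 3 pairs of genes lay inside the 5th to 95th percentile range of all probe pairs.

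The probe listing AT3G50130 among others, 3885, had a correlation of 0.63 with AT3G50130, higher than 97.0% of tested probes had with that gene. Seen from probe 3885, 91.5% of tested probes had a lower correlation with it than AT3G50130 had. With probe 4538, which does not list it, AT3G50130 had a correlation of 0.46. The correlation of probe 3885 with AT3G50180 was 0.24. Probes 3885 and 4538 each had a negative correlation with AT3G50270 (-0.69 and -0.60), and 0.73 with each other, and they list 2 genes in common.

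**Figure D4:**
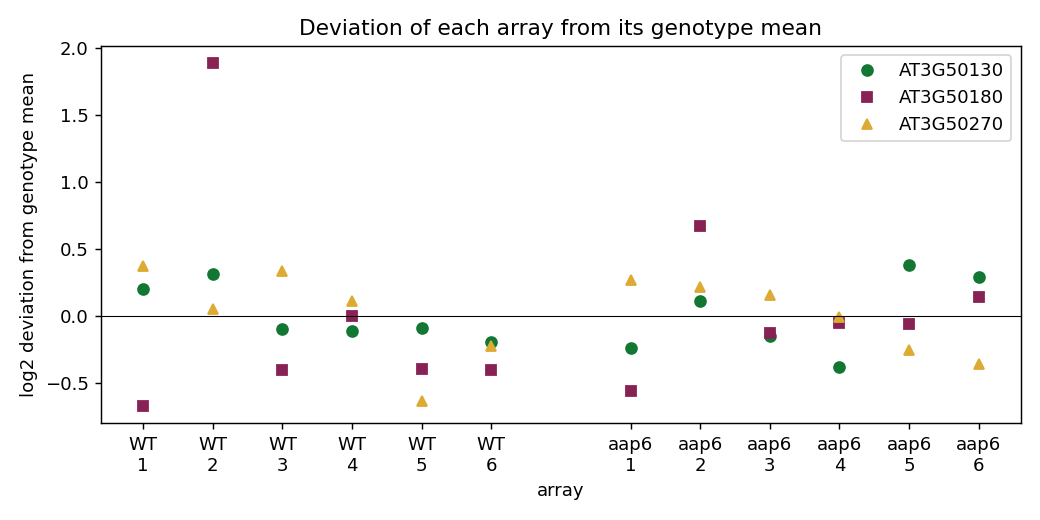
Deviation of each array from its genotype mean (log2, vertical axis) for AT3G50130 (circles), AT3G50180 (squares) and AT3G50270 (triangles) in the 12 arrays. Array 2 of both genotypes stands high for AT3G50180 (1.88 in WT, 0.67 in aap6), and in aap6 arrays 5 and 6 AT3G50130 lies above 0 and AT3G50270 below.

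The signals of AT3G50180 on the arrays numbered 2 were followed further. On the deposited scale array 2 exceeded array 1 by 1.15 in WT and by 0.998 in aap6. On the normalized log2 scale these were 2.56 and 1.24, and 18 of the 2579 tested probes, AT3G50180 included, differed by at least as much in both genotypes. For AT3G50130 the log2 differences were 0.11 and 0.35, and for AT3G50270 -0.32 and -0.05. Over all tested probes, the differences between array 2 and array 1 had a Pearson correlation across probes of 0.60 between the genotypes (Spearman 0.33). For arrays 4 and 3 it was 0.59 and for arrays 6 and 5 it was 0.32.

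**Figure D5:**
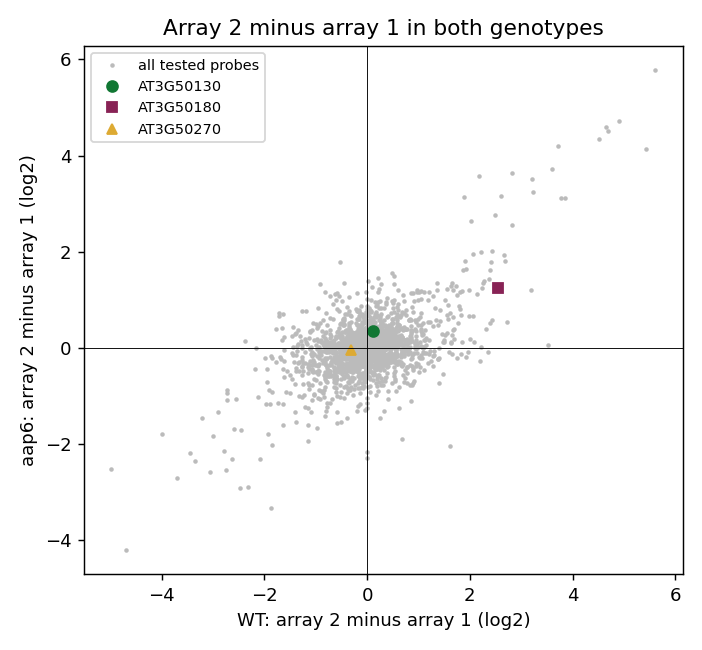
Log2 difference between array 2 and array 1 in WT (horizontal axis) and aap6 (vertical axis) for the 2579 tested probes, with the 3 genes marked. AT3G50180 lies at 2.56 and 1.24, among the probes high on array 2 in both genotypes, while AT3G50130 and AT3G50270 lie near the centre.

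By the fixed rule, the genes with the most similar deviations over 12 arrays were sought for each member among 490 other probes with a single gene. For AT3G50130 they were AT3G06870 (0.88), AT4G02040 (0.83) and AT5G53620 (0.81). None of these 3 was called between genotypes, and their log2 changes were -0.42, -0.20 and -0.77 (limma adjusted p = 0.204, 0.746 and 0.192). With the 3 pairs of numbers as a block none of them passed either (limma adjusted p = 0.142, 0.652 and 0.0804). The measured change of each of the 3 was thus opposite in sign to that of AT3G50130.

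For AT3G50270 the most similar were AT4G21770, of the pseudouridine synthase family (0.93), AT4G33500 (0.93) and AT2G29870, an aquaporin-like gene (0.90). Their log2 changes were 1.17, 1.08 and 0.13, and none passed (limma adjusted p = 0.124, 0.0781 and 0.818). With the 3 pairs of numbers as a block AT4G21770 and AT4G33500 passed (limma adjusted p = 0.0225 and 0.0179). For AT3G50180 they were AT5G48830 (0.88), AT5G19940, a fibrillin-type plastid gene (0.86), and AT5G49590 (0.85). The log2 changes of these 3 were 0.18, 0.97 and 0.42, and none passed (limma adjusted p = 0.733, 0.151 and 0.483). With the same block AT5G19940 passed (limma adjusted p = 0.0199) and the other genes like AT3G50180 did not. Without the arrays numbered 2 the 3 correlations with AT3G50180 were -0.06, 0.61 and -0.28 over 10 arrays, so the likeness of AT5G48830 and AT5G49590 rested on array 2. For AT3G50130 and AT3G50270 the same step left correlations of 0.79 to 0.95. These genes were picked as the highest of 490 on the same arrays, and the other pairs of like arrays stayed in. The step is therefore no independent check of the likeness.

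Genes farther out on chromosome 3 were measured by few probes. Among the 50 protein-coding genes before the stretch and the 50 after it, 3 genes had a probe of their own and 2 were tested, with 0 called and 0 at an unadjusted limma p under 0.05. Over all tested probes those shares were 8.88% and 28.5%, so 0 of 2 says nothing about the neighbourhood. AT3G49740, 43 steps before AT3G50130, had a log2 change of 0.18 (limma adjusted p = 0.653). CML41, a calmodulin-like protein 49 steps after AT3G50270, had one of 0.07 (limma adjusted p = 0.896). AT3G50350, 8 steps after AT3G50270, lay at the floor in all samples and was not tested.

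Out to 200 genes from the stretch, 7 of 9 probes were tested, of which 1 was called higher and 0 lower, against 5.82% and 3.06% of all tested probes. An unadjusted limma p under 0.05 was reached by 3 of the 7, and the median log2 change of the 7 was 0.07. The one called was AT3G50880, 62 steps after AT3G50270 and singled out after its values were seen. It rose by 1.13 on the log2 scale, from -3.77 ± 0.13 to -2.64 ± 0.40 (SD, n = 3; limma adjusted p = 0.0308). Its WT mean lay near the floor, which is -4.31 on that scale. Of 23 listed BAHD acyltransferases, 1 had a probe of its own, AT3G50270, so that list gave no other gene to set beside it. Genes of the family outside the list were not looked at.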

How the data were processed

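Each of 12 arrays gave 1 deposited intensity per probe on a linear scale. How the arrays were made, read, background-corrected and scaled is not stated in the labels or the table. The centring of the deposited intensities is therefore unknown, and every array has its maximum at 100. Of 41268 values, 10.5% were 0. Gene names came from the platform annotation and were matched by gene identifier to the TAIR10.1 table (690 of 692 found), from which names and the order of genes were taken. No sequence of the genes or probes was used.

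Intensities were quantile normalized, raised to a floor of 0.0505 (the 10th percentile of deposited values above 0) and taken to log2. Arrays 1 and 2, 3 and 4, and 5 and 6 of a genotype were averaged. The 25% of probes with the lowest mean were left out, and 2579 were tested in R 4.3.3 by limma 3.58.1 (lmFit, eBayes, adjustment after Benjamini-Hochberg), aap6 minus WT, 3 against 3. The fit was tested on simulated data. The number of arrays limits the precision.

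Deviations from genotype means correlated across probes at 0.403 to 0.506 for averaged samples of one number, enough to count as pairs, though the labels give no pairing. Changes and p-values are from the fit without the pairs as a block unless the block is named. SEs were taken from the variances of the averaged samples of each genotype, without limma and without the pairs. The members, lists and settings were chosen with earlier results of these data known. Named with values were the 3 genes, genes of the fixed lists, neighbours within 50 genes and the 3 most similar genes per member. AT3G50880 lies outside these and was named after its values were seen. No gene of the marker lists had a probe of its own.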

Additional observations from a re-analysis of the deposited data

Results flagged for a closer look

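Among 10 sets of 6 arrays (the 3 genes and probes 3885 and 4538 in each genotype), 2 had an array far from the others, where chance gives about 1 in 20 for independent arrays. The arrays here resemble each other in pairs, so that rate may not hold. For AT3G50180 in WT, array 2 was the highest, and its gap to the next array was 0.737 of the whole range on the normalized log2 scale. The probes with the adjacent identifiers stood at 0 in WT array 1 and at 0.280 (2419) and 0.256 (2421) in WT array 2. In aap6 arrays 1 and 2 probe 2419 went from 0 to 0.321 and probe 2421 from 0.127 to 0.182. These 2 probes were looked at after the values were seen, and what adjacent identifiers mean on the array is not given in the sources used here. For probe 4538 in WT, array 3 was the lowest, with a gap of 0.734 of the range. On the normalized log2 scale, on which alone the flags were set, it stood at -0.159, against 0.012 to 0.074 in the other WT arrays. The deposited signal of array 3 was 0.811, against 0.896 to 1.02 in the other WT arrays.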

How the results depend on the processing

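The count of 229 probes called was 900 without scaling, 705 with arrays centred on their medians, 783 with 12 arrays as 12 samples, 359 with the averaged sample as a random effect, 464 with the replicate block of 3 pairs and 1046 with the replicate block of 6 numbers over 12 arrays. A floor of 0, the 10th percentile of all deposited values, gave 130. Leaving out averaged samples gave 58 to 167, the lowest without aap6 arrays 3 and 4. With aap6 arrays 1 and 2 dropped it was 73, with aap6 arrays 5 and 6 dropped 93, with WT arrays 3 and 4 dropped 89 and with WT arrays 1 and 2 dropped 143. The cause was not tested. Of the 3 genes, 1 to 3 were called under these settings. The log2 change of AT3G50130 (2.25) was 2.56 without scaling and 1.83 centred, with leave-outs of 2.08 to 2.38. That of AT3G50180 (1.51) was 1.92 without scaling and 1.94 without WT array 2, with leave-outs of 1.31 to 1.81. That of AT3G50270 (1.06) was 1.74 without scaling, with leave-outs of 0.84 to 1.21. Every one of these values was above 0, but the genes were chosen with this change known, so nothing is read from that. Correlations moved more. For AT3G50130 and AT3G50180 (0.47) it was 0.66 over 6 averaged samples, 0.17 without the arrays numbered 2, and 0.41 to 0.64 over leave-outs. For AT3G50130 and AT3G50270 leave-outs gave -0.56 to 0.37. For AT3G50180 and AT3G50270, near 0 over 12 arrays, it was 0.50 over 6 averaged samples, -0.41 without the arrays numbered 2 and -0.36 as Spearman's rho, with leave-outs of -0.37 to 0.085. Settings with the floor of 0, without arrays numbered 2 and with Spearman's rho were chosen after seeing the data.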
